A study of Homo sapiens with 6 samples.

Results

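Keratins are the intermediate filament proteins of epithelial cells. Each filament is an obligate copolymer of type I (acidic) and type II (basic or neutral) chains, so the genes are usually described in partner pairs: *KRT5* with *KRT14* in the basal layer of stratified epithelia, *KRT8* with *KRT18* in simple epithelia, *KRT1* with *KRT10* in cornifying cells, *KRT4* with *KRT13* in the internal stratified epithelia that line the ectocervix, and *KRT6* chains with *KRT16* or *KRT17* after wounding. Calcitriol, the hormonal form of vitamin D, acts through the vitamin D receptor, a nuclear receptor, and is known to promote differentiation of skin keratinocytes.

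The keratin genes were examined in CaSki, an established human cervical carcinoma line that carries HPV16. Calcitriol-treated cells had received 10 nM calcitriol for 24 h, and vehicle-treated cells 0.1% ethanol for 24 h. Each group had 3 arrays (Clariom D, 1 colour), and each array read a pool of total RNA that mixed replicates of the same independent experiments. The p-values therefore measure only the spread between pools, which may be technical. Members were the features to which the platform annotation gives a single symbol of KRT with digits and at most 1 letter from A to C. There were 49 such features of 138745, and they stood for 48 keratin genes, 27 of type I and 21 of type II, of 55 protein-coding keratins in RefSeq. *KRT7* had 2 features, and the brighter one was used. *KRT15* shared its feature with another gene, and no feature of their own was listed here for *KRT6A*, *KRT6B*, *KRT17*, *KRT81*, *KRT82* and *KRT86*. Type II genes lie on chromosome 12 and type I genes on chromosome 17, except *KRT18*, which lies on chromosome 12 as well.

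Values are the log2 signals of the authors, medians per array lay between 4.27 and 4.33, and any pair of arrays correlated at 0.981 to 0.984. Levels of different genes were not set against each other, because every gene is read by its own probes. The limit for a detectable signal was 6.32, the 95th percentile of 612 negative control features, and genes whose mean over 6 arrays exceeded it are described as above the negative controls. *CYP24A1*, the calcitriol-degrading enzyme and a direct target of the vitamin D receptor, was higher in calcitriol pools by 7.60 (log2, adjusted p = 0.0137, limma). It was the 1 feature past an adjusted p of 0.05, or 0.000721% of all features. The epithelial markers measured were *EPCAM*, *CDH1*, *CDKN2A* and, from the keratins themselves, *KRT5*, *KRT8* and *KRT18*. Of these, 6 of 6 lay above the negative controls, as did 2 of 5 fibroblast, 1 of 3 leukocyte and 0 of 3 endothelial markers. *PTPRC*, a leukocyte marker, and *CD3E*, a T-cell marker, lay below them, while the macrophage-associated *CD68* and the collagen genes *COL1A1* and *COL1A2* lay above. Their part in the keratin values was not tested. In bulk RNA, fewer cells of a type and less RNA per cell cannot be told apart.

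Signals above the negative controls were found for 15 keratin genes, 8 of type I and 7 of type II. These were the basal pair *KRT5* and *KRT14*, the simple-epithelial *KRT7*, *KRT8*, *KRT18* and *KRT19*, the stress-associated *KRT6C* and *KRT16*, the mucosal pair *KRT4* and *KRT13*, and *KRT9*, *KRT75*, *KRT80*, *KRT31* and *KRT34*. Nearest to the limit were *KRT13* inside it, with a mean of 6.42, and *KRT85* outside it, with 6.315. The markers of cornification *KRT1* (mean 5.46) and *KRT10* (3.69) and the intestinal *KRT20* (5.85) lay below the limit. By role, the limit was exceeded by 2 of 2 measured basal, 4 of 5 simple-epithelial, 2 of 2 stress-associated, 2 of 7 internal stratified and corneal, 1 of 5 cornifying, 1 of 9 root-sheath, 2 of 14 hair-shaft and 1 of 4 other keratins.

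Between treatments, the keratins that differed most were dim or moderate ones, and all of these were lower with calcitriol. *KRT9* was the 1 gene past both thresholds used for counting, an unadjusted p under 0.05 and a fold of at least 1.5, and no keratin was past them in the other direction. *KRT80*, *KRT4* and *KRT18* had an unadjusted p under 0.05 at smaller folds. The keratins with a mean signal of at least 15, *KRT5*, *KRT14*, *KRT7*, *KRT8*, *KRT19*, *KRT16* and *KRT6C*, changed by at most 0.24 on the log2 scale. No keratin passed an adjusted p of 0.05, the lowest being 0.915 (limma, Benjamini-Hochberg over all features).

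**Figure D1:**
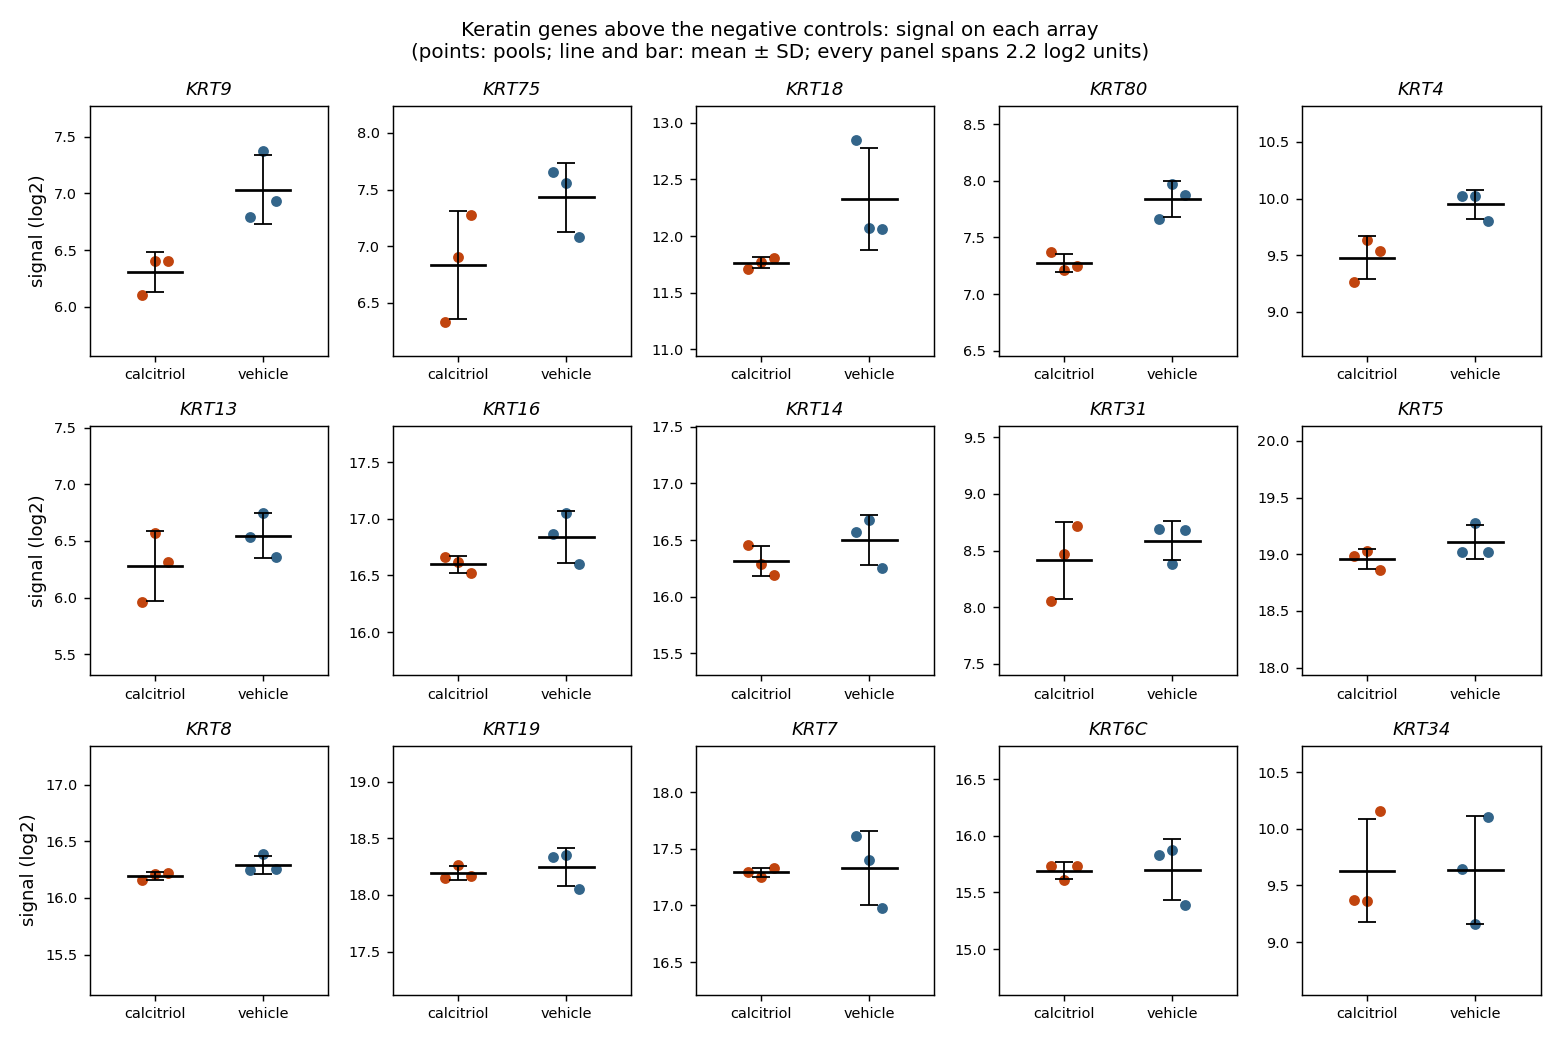
Signal (log2) of the 15 keratin genes above the negative controls on each array, calcitriol pools on the left and vehicle pools on the right of every panel, with mean and SD (n = 3 pools each) and panels ordered by fold change. Calcitriol pools of *KRT9*, *KRT18*, *KRT80*, *KRT4* and *KRT8* all lie below the vehicle pools, and the remaining 10 panels overlap.

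*KRT9*, a type I keratin of the suprabasal cells of palm and sole skin, had signals of 6.10, 6.41 and 6.40 in calcitriol pools 1 to 3, against 6.79, 7.37 and 6.94 in vehicle pools 1 to 3. All calcitriol pools lay below all vehicle pools, and the calcitriol mean of 6.31 was under the limit (6.316), against a vehicle mean of 7.03. The log2 fold change was -0.73 (SE 0.21, 95% interval -1.20 to -0.25, adjusted p = 0.915, limma), a fold of 1.66. The direction was the same with each array left out, and the unadjusted p stayed under 0.05 each time. Without vehicle pool 2 the log2 fold change was -0.56, and with arrays centred on the exogenous controls it was -0.38 with an unadjusted p over 0.05, so both thresholds were no longer passed.

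*KRT80*, a type II keratin found in many epithelia and associated with desmosomes, had signals of 7.37, 7.22 and 7.25 in calcitriol pools, against 7.66, 7.97 and 7.88 in vehicle pools. The groups did not overlap, and the calcitriol pools were close together. The log2 fold change was -0.56 (SE 0.17, 95% interval -0.95 to -0.17, adjusted p = 0.915, limma), just under a fold of 1.5. Its unadjusted p stayed under 0.05 with any 1 of the 6 arrays left out, with log2 fold changes of -0.65 to -0.49, and under 3 of 4 other scalings, the exception being the centring on exogenous controls (-0.22).

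*KRT4*, the type II keratin of suprabasal cells in oesophagus, mouth and ectocervix, had signals of 9.27, 9.63 and 9.54 in calcitriol pools, against 10.02, 10.02 and 9.80 in vehicle pools. Again the groups did not overlap. The log2 fold change was -0.47 (SE 0.18, 95% interval -0.88 to -0.06, adjusted p = 0.915, limma). Its unadjusted p was under 0.05 in 2 of 6 fits with 1 array left out, those without calcitriol pool 2 or vehicle pool 3, and under none of the 4 other scalings. Its type I partner *KRT13* had 5.96, 6.57 and 6.32 in calcitriol pools, against 6.54, 6.75 and 6.36 in vehicle pools. These groups overlapped, calcitriol pool 2 being above vehicle pools 1 and 3, and the log2 fold change was -0.27 (SE 0.21, adjusted p = 0.932, limma).

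*KRT18*, the type I chain of simple epithelia, had signals of 11.71, 11.78 and 11.81 in calcitriol pools, against 12.85, 12.07 and 12.06 in vehicle pools. The groups did not overlap, but vehicle pool 1 stood apart from the other vehicle pools. The log2 fold change was -0.56 (SE 0.24, adjusted p = 0.915, limma). Without vehicle pool 1 it was -0.30. Its unadjusted p was under 0.05 in 2 of 6 fits with 1 array left out, those without vehicle pool 2 or 3, and under none of the 4 other scalings. Its type II partner *KRT8* had 16.16, 16.21 and 16.22 in calcitriol pools, against 16.24, 16.39 and 16.25 in vehicle pools. The *KRT8* pools did not overlap either, but the difference was only -0.10 (SE 0.16, 95% interval -0.46 to 0.27, adjusted p = 0.97, limma).

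*KRT75*, a type II keratin of the companion layer of the hair follicle, had signals of 6.33, 6.91 and 7.28 in calcitriol pools, against 7.66, 7.55 and 7.08 in vehicle pools. Calcitriol pool 3 exceeded vehicle pool 3, so the groups overlapped. With a log2 fold change of -0.59 (SE 0.27, adjusted p = 0.915, limma) it reached a fold of 1.5 but missed the p threshold, and the value ranged from -0.81 to -0.34 as single arrays were left out.

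The basal pair gave strong signals that differed little. *KRT5* had 18.98, 19.03 and 18.86 in calcitriol pools, against 19.02, 19.28 and 19.02 in vehicle pools, and the groups overlapped. The log2 fold change of *KRT5* was -0.15 (SE 0.17, 95% interval -0.54 to 0.24, adjusted p = 0.954, limma). In the deposited values a 1.5-fold change in either direction lay outside that interval, which covers only the spread between pools. With arrays centred on the exogenous controls the log2 fold change of *KRT5* was 0.19, and no interval is given for it. *KRT14* had 16.45, 16.29 and 16.19 in calcitriol pools, against 16.57, 16.68 and 16.25 in vehicle pools, with overlap and a log2 fold change of -0.19 (SE 0.19, 95% interval -0.61 to 0.24). For *KRT14* a 1.5-fold lower level was within the interval.

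*KRT7* and *KRT19*, simple-epithelial chains that mark glandular and transitional epithelium, differed by less than the spread between pools in the deposited values. With arrays centred on the exogenous controls their log2 fold changes were 0.30 and 0.29. *KRT7* had 17.30, 17.25 and 17.33 in calcitriol pools, against 17.62, 17.40 and 16.98 in vehicle pools, and the vehicle pools lay on both sides of the calcitriol pools (log2 fold change -0.04, 95% interval -0.50 to 0.43). The dimmer *KRT7* feature gave -0.06. *KRT19* had 18.15, 18.26 and 18.16 in calcitriol pools, against 18.33, 18.35 and 18.05 in vehicle pools, with a log2 fold change of -0.05 (95% interval -0.44 to 0.34).

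The stress-associated keratins, which are induced in wounded and hyperproliferative epidermis, were represented by 2 of 5 genes. *KRT16* had 16.66, 16.61 and 16.52 in calcitriol pools, against 16.87, 17.05 and 16.60 in vehicle pools. Only vehicle pool 3 fell among the calcitriol pools, and the log2 fold change was -0.24 (SE 0.18, adjusted p = 0.93, limma). *KRT6C* had 15.74, 15.61 and 15.73 in calcitriol pools, against 15.83, 15.88 and 15.39 in vehicle pools, with a log2 fold change of -0.01 (95% interval -0.44 to 0.43). *KRT6C* is almost identical in sequence to *KRT6A* and *KRT6B*, and *KRT14* and *KRT16* resemble *KRT17* and several pseudogenes, so the transcripts behind these signals are uncertain. None of the bright keratins reached the ceiling of the values, and the nearest, *KRT5*, stayed 0.65 below it.

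The 2 hair-shaft keratins with signal showed wide spreads. *KRT31* had 8.05, 8.47 and 8.72 in calcitriol pools, against 8.69, 8.39 and 8.68 in vehicle pools (log2 fold change -0.17, SE 0.22). *KRT34* had 9.37, 9.37 and 10.16 in calcitriol pools, against 9.65, 9.16 and 10.11 in vehicle pools (log2 fold change -0.01, SE 0.30). Both genes overlapped between groups, and pool 3 was the highest calcitriol pool for each.

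The other 33 keratins lay at or below the negative controls, and their log2 fold changes ran from -0.46 to 0.18. None had an unadjusted p under 0.05. In the cornifying group, *KRT1* had a log2 fold change of -0.17 (SE 0.18) and *KRT10* one of -0.17 (SE 0.21), with overlapping pools in both. *KRT36*, *KRT38*, *KRT39* (hair shaft) and *KRT78* (internal stratified epithelia) did not overlap between groups, calcitriol pools being lower, with log2 fold changes of -0.38, -0.46, -0.39 and -0.12. Signals this low are not separable from those of probes without a target.

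**Figure D2:**
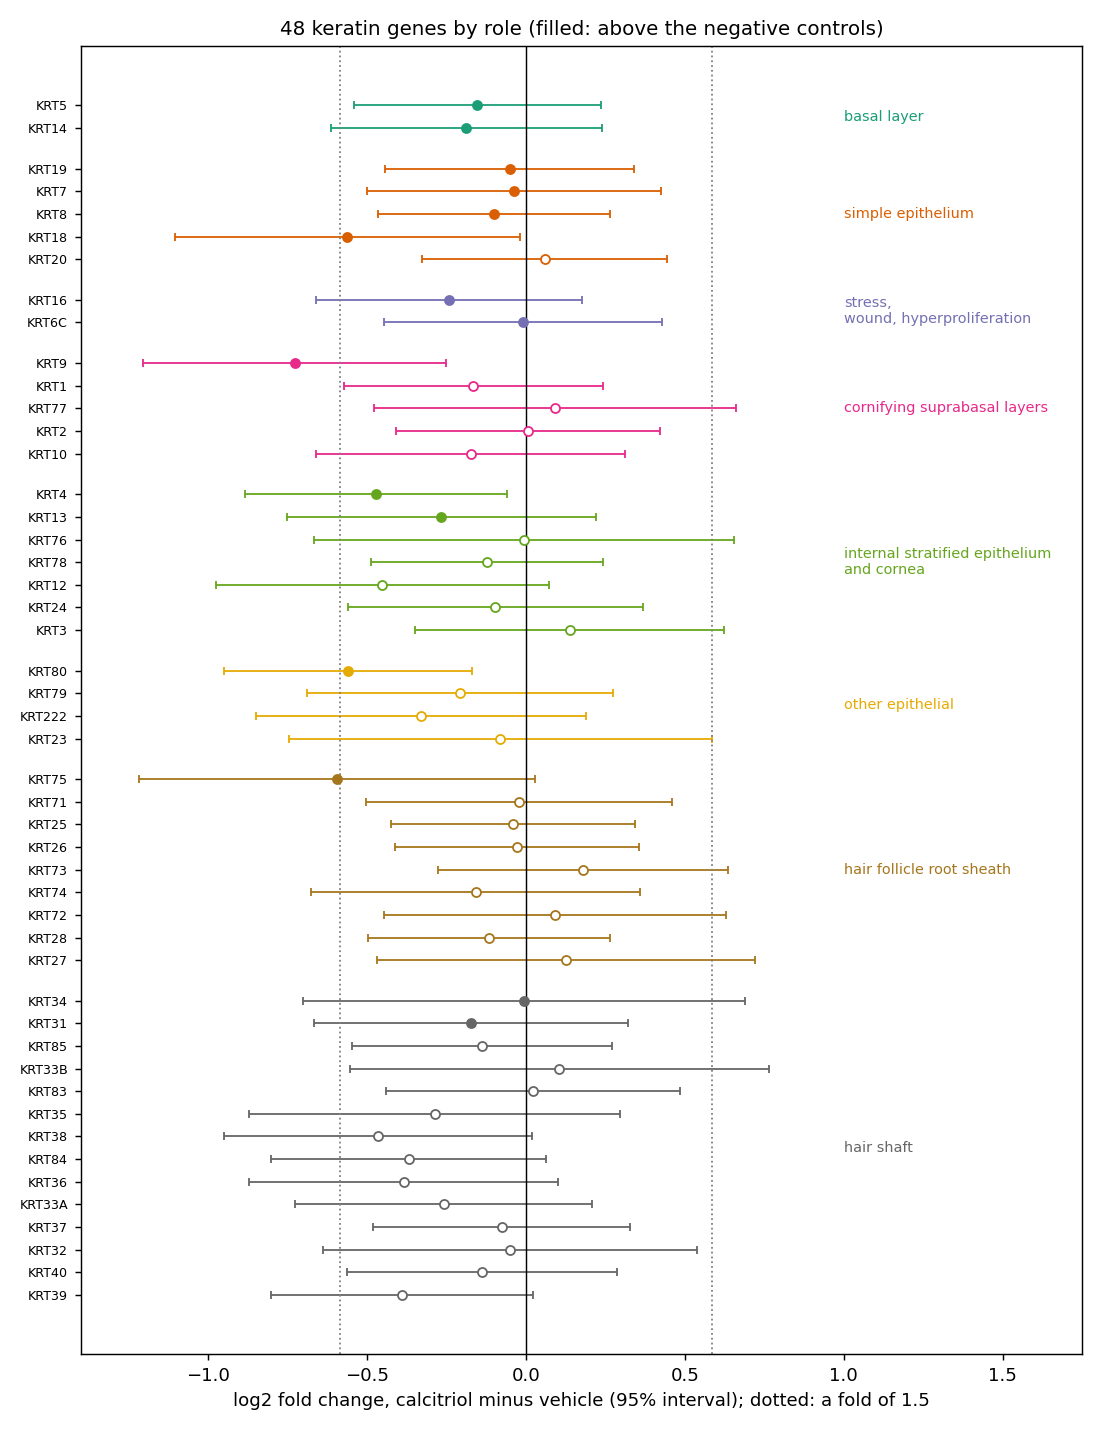
Log2 fold change (calcitriol minus vehicle, x axis) with its 95% interval from limma for the 48 keratin genes, grouped by role and ordered by mean signal within a role; filled symbols are the 15 genes above the negative controls and dotted lines mark a fold of 1.5. Intervals of *KRT9*, *KRT80*, *KRT4* and *KRT18* stay below 0.

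Counted over all 48 keratins, 1 was lower and 0 higher at both thresholds, against a background of 1.56% lower and 1.43% higher among all features. At an unadjusted p under 0.05 alone, 4 were lower and 0 higher, against 2.83% and 2.58% of all features. Groups did not overlap for 9 keratins with calcitriol lower and for 0 with calcitriol higher, against 5.55% and 5.16% of all features. Dim features weigh heavily in that background, so the 15 keratins above the negative controls were also set beside the 8229 protein-coding genes above them. There 1 of 15 keratins was lower at both thresholds, against 4.31% of coding genes (higher, 0 of 15 against 0.219%). With p alone 4 of 15 were lower, against 8.6% (higher, 0 of 15 against 0.474%), and without overlap 5 of 15 were lower, against 15.5% (higher, 0 of 15 against 1.11%). These shares are descriptions and support nothing about the members: the mean over 6 arrays lets a gene pass through 1 group alone, and *KRT9* and *KRT13* passed only through the vehicle pools, which favours a lower value. Of the 13 keratins above the limit in both groups, a filter chosen after seeing the data, 0 were lower at both thresholds, 3 were lower with p alone and 4 were lower without overlap. Shares of coding genes under that filter are not given, so these counts support nothing about the members either.

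The 15 keratins above the negative controls, 2 of which (*KRT9* and *KRT13*) passed only through the vehicle pools, all had a log2 fold change below 0 in the deposited values, but 11 of 15 did after quantile normalization or cyclic loess, 10 with arrays centred on coding genes and 5 with arrays centred on the exogenous controls. The median of the 15 was -0.19 (-0.17 over the 13 above the limit in both groups), beside -0.16 over coding genes above the negative controls, of which 6420 of 8229 were below 0, and -0.004 over all features. The 8 exogenous controls, RNAs added during labelling and hybridization, were themselves lower on calcitriol arrays, with a median log2 difference of -0.31. Their part in the keratin values was not tested. Among the keratins, the 7 with a mean of at least 15 had a median of -0.10, beside -0.10 for 422 coding genes of that brightness. The 8 dimmer ones, *KRT9* and *KRT13* among them, had a median of -0.52, for which no background of like brightness was computed. With arrays centred on the exogenous controls, *KRT9*, *KRT75*, *KRT18*, *KRT80* and *KRT4* were at -0.38 to -0.13. *KRT13*, *KRT31* and *KRT34* were above 0 in that scaling. Type I and type II members with signal had medians of -0.21 and -0.15.

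**Figure D3:**
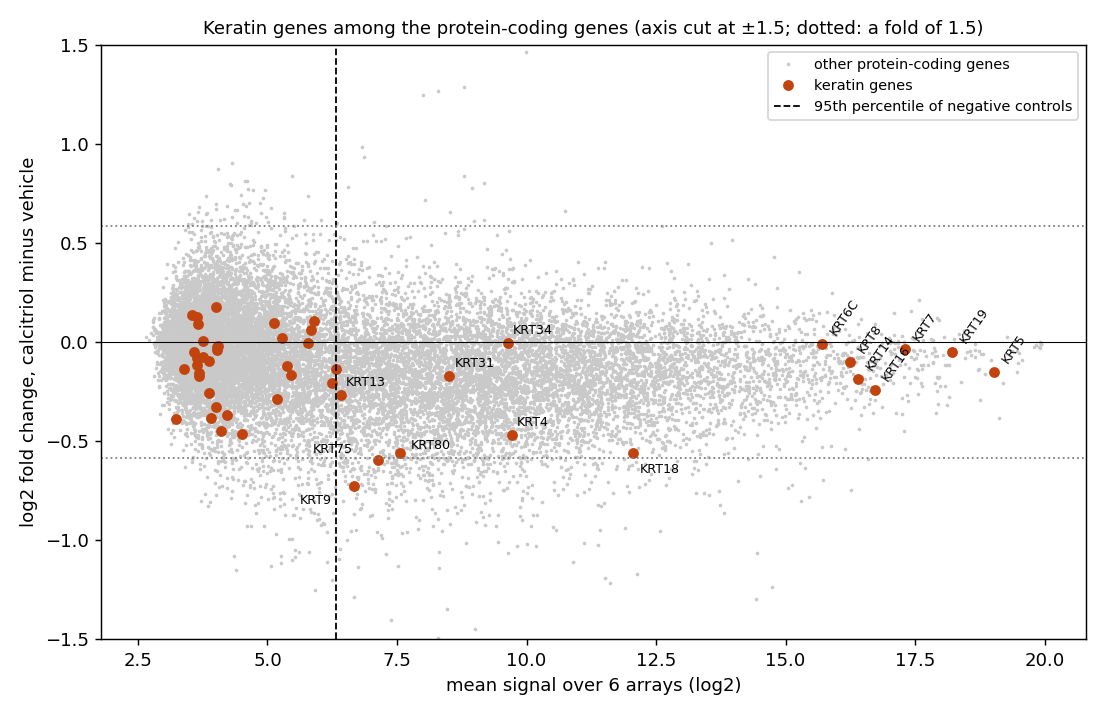
Mean signal over 6 arrays (log2, x axis) against the log2 fold change, calcitriol minus vehicle, for the keratin genes (large points) and all other protein-coding genes (small grey points); the dashed line is the level of the negative controls. In the deposited values the 15 keratins to the right of it lie between -0.73 and -0.01, and the 7 brightest between -0.24 and -0.01. With arrays centred on the exogenous controls 5 of 15 are below 0, and the 7 brightest lie between 0.10 and 0.33.

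Partner balance was followed as the type II minus the type I signal on the same array, which removes shifts common to an array. Of 6 such pairs, 5 had been listed and *KRT6C* with *KRT16* was added after the values were seen. Pairs with *KRT6A*, *KRT6B* or *KRT17* could not be formed. *KRT8* minus *KRT18* was 4.45, 4.44 and 4.41 in calcitriol pools, against 3.40, 4.31 and 4.19 in vehicle pools. The groups did not overlap, the calcitriol pools were nearly equal, and vehicle pool 1 stood apart. The difference changed by 0.46 (95% interval -0.33 to 1.26, two-sided exact permutation p = 0.1, the smallest that 3 against 3 pools can give), and by 0.18 without vehicle pool 1.

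*KRT5* minus *KRT14* changed by 0.03 (95% interval -0.27 to 0.34, exact permutation p = 0.8) and *KRT7* minus *KRT19* by 0.01 (95% interval -0.32 to 0.34, exact permutation p = 1). In the deposited values these 2 intervals, which cover only the spread between pools, leave out a 1.5-fold change of the ratio in either direction. *KRT4* minus *KRT13* changed by -0.21 (95% interval -0.47 to 0.06, exact permutation p = 0.2). After quantile normalization that change was -0.099 (exact permutation p = 0.6), and *KRT13* passed the limit only through the vehicle pools. *KRT6C* minus *KRT16*, added after the values were seen, was higher in every calcitriol pool. It changed by 0.23 (95% interval 0.000342 to 0.47, exact permutation p = 0.1). The interval comes from the t distribution and not from the permutation, so its lower end just above 0 is not a second test. *KRT1* minus *KRT10*, both below the negative controls, changed by 0.01 (exact permutation p = 0.9). After Benjamini-Hochberg adjustment over the 6 pairs the lowest p was 0.3.

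**Figure D4:**
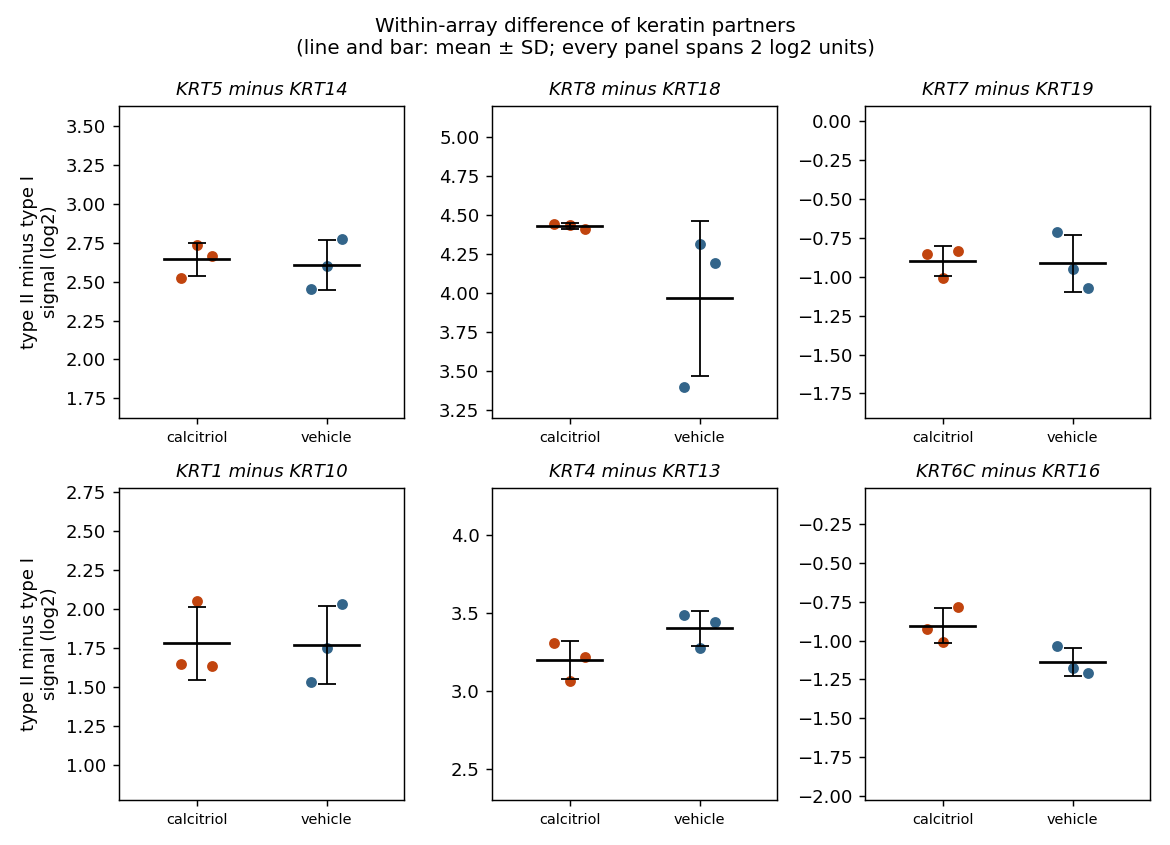
Type II minus type I signal (log2) on each array for 6 keratin pairs, calcitriol pools on the left and vehicle pools on the right, with mean and SD (n = 3 pools each). In *KRT8* minus *KRT18* the calcitriol pools lie between 4.41 and 4.45 and vehicle pool 1 lies at 3.40.

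Keratin pseudogenes are numerous and share sequence with their parents, so their features may catch the parents' transcripts and are not independent of them. There were 127 keratin pseudogene features, of which 29 lay above the negative controls. Among the 127, 2 held the same values, both named *KRT18P53* and both among the 29. Here too the mean over 6 arrays lets a feature pass through 1 group alone. The 29 had a median log2 fold change of -0.26, and 25 of them were below 0 in the deposited values, but 21 with arrays centred on coding genes and 10 with arrays centred on the exogenous controls. All 6 *KRT17* pseudogenes above the controls were below 0, with log2 fold changes of -0.55 to -0.20, but 3 of 6 when centred on the exogenous controls. The brightest, *KRT17P1*, had 17.05, 17.20 and 17.46 in calcitriol pools, against 17.71, 17.21 and 17.48 in vehicle pools, and the groups overlapped. *KRT16P5* had 14.53, 14.55 and 14.56 in calcitriol pools, against 14.98, 15.06 and 14.88 in vehicle pools, a log2 fold change of -0.43 (SE 0.16) with no overlap and an unadjusted p under 0.05, but -0.33 to -0.09 in the 4 other scalings. Of 9 *KRT18* pseudogene features with signal, 7 were below 0 as deposited and 4 centred on the exogenous controls. *KRT18P56* and the 2 equal *KRT18P53* features passed the limit only through the vehicle pools, which favours a lower value. *KRT18P18* and *KRT18P63*, the features above 0, passed it only through the calcitriol pools, which favours a higher one. These counts therefore support nothing about the members. *KRT18P56* was lower at both thresholds at -0.65 (SE 0.17), its calcitriol pools being under the level of the negative controls. It was short of a fold of 1.5 at -0.51 centred on coding genes and -0.31 centred on the exogenous controls. Of 9 *KRT8* pseudogene features with signal, 8 were below 0 as deposited, with a median of -0.16, but 5 centred on coding genes and 2 centred on the exogenous controls.

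**Figure D5:**
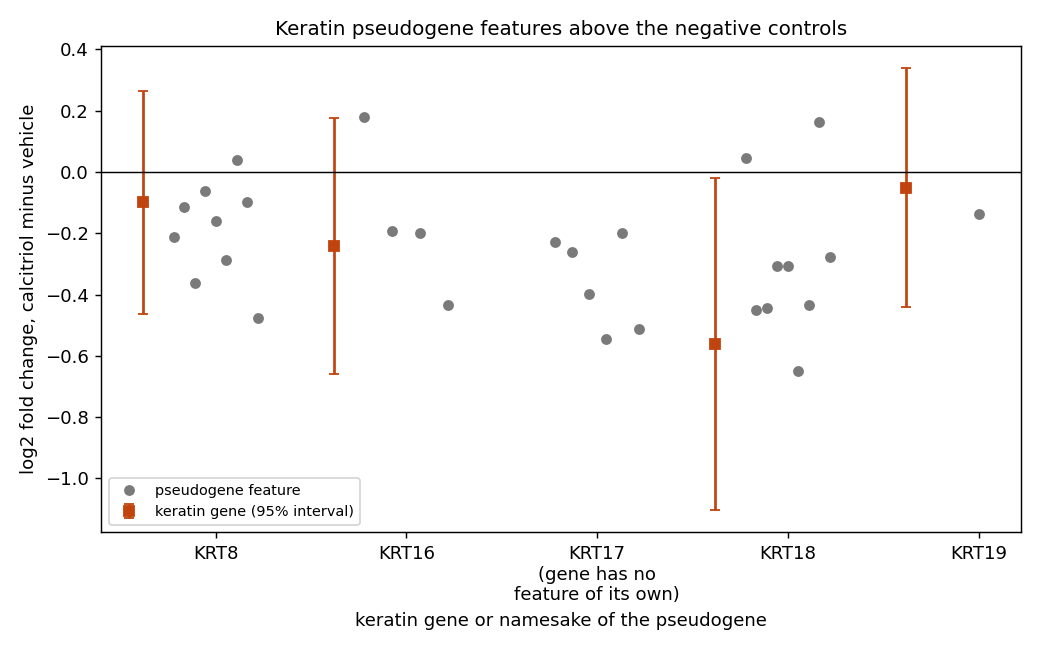
Log2 fold change (calcitriol minus vehicle, y axis) of keratin pseudogene features above the negative controls (grey points), grouped by the gene they are named after, beside that keratin gene with its 95% interval from limma (squares; *KRT17* has no feature of its own here). In the deposited values all 6 *KRT17* and 7 of 9 *KRT18* pseudogene features lie below 0, against 3 and 4 of them with arrays centred on the exogenous controls. *KRT18P56* and *KRT18P53* (features of equal values) passed the limit only through the vehicle pools, *KRT18P18* and *KRT18P63* only through the calcitriol pools.

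Genes that work with keratins were counted from lists. Of 17 measured linkers and regulators of keratin filaments, such as plakins and plakophilins, 2 were lower and 0 higher at both thresholds, beside the 1.56% and 1.43% of all features and the 4.31% and 0.219% of coding genes above the negative controls. These were *PKP2*, a plakophilin that ties keratin to desmosomes, at 14.98 ± 0.17 in calcitriol pools and 15.59 ± 0.12 in vehicle pools (SD, n = 3 each, log2 fold change -0.61, SE 0.18, adjusted p = 0.915, limma), and *DST*, the hemidesmosome plakin, at -0.70 (SE 0.29) with overlapping pools. *PKP2* kept its direction but was under a fold of 1.5 in each of the 4 other scalings, at -0.51 to -0.27, and *DST* in 2 of 4, at -0.56 centred on coding genes and -0.35 centred on the exogenous controls. Envoplakin (*EVPL*), a precursor of the cornified envelope, differed by -0.50 (SE 0.19) without overlap, and by -0.16 centred on the exogenous controls. Of 15 other intermediate filament genes, 0 passed both thresholds, beside the same background. At an unadjusted p under 0.05 alone, 1 was lower and 1 higher, beside 2.83% and 2.58% of all features. Among coding genes above the negative controls these shares were 8.6% and 0.474%. The genes past that p were the neurofilament gene *NEFM*, at -0.48 (SE 0.17), and the muscle filament gene *DES*, at 0.55 (SE 0.21) with a signal below the negative controls. Neither overlapped between groups. The neurofilament gene *NEFL* differed by -0.53 (SE 0.23), also without overlap, as did *SYNM* by -0.20 (SE 0.17) with a signal below the negative controls. Vimentin (*VIM*) differed by -0.29 (SE 0.19) with overlap. In this list groups did not overlap for 3 genes with calcitriol lower and 1 with calcitriol higher, beside 5.55% and 5.16% of all features. Among coding genes above the negative controls these shares were 15.5% and 1.11%. Other scalings are not given for these genes. Of 11 measured transcription factors of keratin genes, among them *KLF5*, *GRHL2* and *TFAP2A*, 0 had an unadjusted p under 0.05 in either direction, beside 2.83% lower and 2.58% higher of all features.

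Promoter sequences were available for 33 of the 48 keratins (RefSeq, GRCh38.p14, 250 bases before to 50 after the start). Those of *KRT9*, past both thresholds, of *KRT4*, the non-overlapping mucosal keratin, and of the bright *KRT5*, which differed little, are shown 5′ to 3′ on the minus strand of the genome. Capitals mark matches, on either strand, to the motifs TATAAA (the usual form of the TATA box), TATAAG (another such form, added after the sequences were seen), TGACTCA (the AP-1 site), GGGCGG (the GC box), AGGTCA (a hexamer bound by many nuclear receptors), AGTTCA (a hexamer known from vitamin D response elements) and GGTTCA (likewise).
KRT9 (chr17:41572010-41572309): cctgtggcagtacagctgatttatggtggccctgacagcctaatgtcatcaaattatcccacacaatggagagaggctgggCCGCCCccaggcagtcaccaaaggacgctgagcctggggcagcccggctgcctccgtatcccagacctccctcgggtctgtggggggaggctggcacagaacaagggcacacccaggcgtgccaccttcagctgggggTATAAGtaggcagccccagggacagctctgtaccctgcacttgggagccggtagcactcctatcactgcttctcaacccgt
KRT4 (chr12:52814067-52814366): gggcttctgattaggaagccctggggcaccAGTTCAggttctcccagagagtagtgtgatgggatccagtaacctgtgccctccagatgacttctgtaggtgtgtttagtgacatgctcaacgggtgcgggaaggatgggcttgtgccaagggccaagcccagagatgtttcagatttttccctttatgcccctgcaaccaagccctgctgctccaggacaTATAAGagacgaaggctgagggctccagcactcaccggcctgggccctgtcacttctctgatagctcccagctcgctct
KRT5 (chr12:52520345-52520644): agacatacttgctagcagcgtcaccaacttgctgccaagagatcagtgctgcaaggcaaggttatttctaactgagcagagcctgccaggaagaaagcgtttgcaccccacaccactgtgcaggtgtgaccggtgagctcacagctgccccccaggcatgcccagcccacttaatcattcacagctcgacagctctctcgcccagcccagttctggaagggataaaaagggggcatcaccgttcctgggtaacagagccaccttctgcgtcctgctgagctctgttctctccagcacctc

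*KRT9* and *KRT4* each held TATAAG, beginning at positions -31 and -29 from the start of the gene, *KRT9* a reversed GC box at position -169, and *KRT4* an AGTTCA at position -220. *KRT5* held none of the 7 motifs in this window. Over the 33 keratin promoters, TATAAA was found in 19, or 57.6%, beside 11.95% of 27305 promoters of that length, and the GC box in 6, or 18.2%, beside 44.6%. AGTTCA was found in 6, or 18.2%, beside 10.5%, GGTTCA in 4, or 12.1%, beside 8.62%, AGGTCA in 3, or 9.09%, beside 13.9%, and TGACTCA in 0, beside 4.92%. TATAAG was found in 6, or 18.2%, beside 5.68%. Among 15842 promoters of coding genes the shares were 9.63% for TATAAA, 58.5% for the GC box and 8.52% for AGTTCA. Of the keratins with TATAAA only *KRT31* and *KRT34* lay above the negative controls, and of those with AGTTCA only *KRT4*. These are matches of letters only.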

How the data were processed

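The deposited table holds 1 log2 signal per feature and array for 138745 features. Background correction and normalization had been run by the authors in Transcriptome Analysis Console; which algorithm it used is not given in the sources used, nor is the build. A signal under 6.32 does not exceed the 95th percentile of the negative controls, and 3 arrays per group limit the precision.

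Symbols were taken from the platform annotation, which gives exactly 1 for 36176 features and several for 1119; those with several were not used for genes. The brightest feature stood for a gene. Calcitriol arrays were set against vehicle arrays with limma 3.58.1 (R 4.3.3; moderated variances, two-sided p-values, Benjamini-Hochberg over all features, control features included) after a test on simulated data. A gene was counted at an unadjusted p under 0.05 and a fold of at least 1.5. Every keratin above the negative controls or past both thresholds was named. Pair differences were tested by exact permutation. Alternatives were other normalizations, variance models, averages, filters, feature choices, thresholds, a replicate block, and single arrays left out. The members, lists and tests were chosen with earlier results of these data known. Protein sequences were not analysed here.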

Additional observations from a re-analysis of the deposited data

How the results depend on the processing

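No keratin passed an adjusted p of 0.05 under any alternative, and none was higher at both thresholds. Tukey biweight averages gave new fold changes only and kept the p-values of the main fit. The count lower at both thresholds, 1, became 2 by fold alone, 4 by p alone (both chosen after seeing the data), 0 with arrays centred on the exogenous controls, and 2 to 3 with single arrays left out. The count lower without overlap, 9, became 4 centred on coding genes, 0 centred on the exogenous controls, and 10 to 18 with single arrays left out, where fewer samples make overlap rarer. The count higher without overlap, 0, became 1 centred on coding genes, 8 centred on the exogenous controls, and 0 to 1 with arrays left out. Except for p alone, shares of all features at these settings are not given, so these changed counts support nothing about the members. The median of the 15 keratins with signal, -0.19, became 0.16 centred on the exogenous controls and -0.31 to -0.16 with arrays left out. That centring moved the median of all features by 0.34 and centring on coding genes by 0.14, and the cause of the differences was not tested. Coding genes above the negative controls split 355 lower and 18 higher at both thresholds as deposited, 171 and 33 after quantile normalization, 129 and 44 centred on coding genes, and 35 and 223 centred on the exogenous controls.

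*KRT9* was -0.38 centred on the exogenous controls and -0.55 by Tukey biweight averages, each short of the thresholds, and -0.85 to -0.56 with arrays left out. *KRT80* passed both by Tukey biweight averages, at -0.62.

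Signs turned when arrays were centred on the exogenous controls for *KRT13* (0.077), *KRT14* (0.16), *KRT16* (0.10), *KRT19* (0.29), *KRT31* (0.17), *KRT34* (0.34), *KRT5* (0.19), *KRT6C* (0.33), *KRT7* (0.30) and *KRT8* (0.24). Centred on coding genes they turned for *KRT19* (0.088), *KRT34* (0.13), *KRT6C* (0.13), *KRT7* (0.10) and *KRT8* (0.040). With cyclic loess they turned for *KRT19* (0.026), *KRT34* (0.12), *KRT6C* (0.088) and *KRT7* (0.047). With quantile normalization they turned for *KRT19* (0.019), *KRT34* (0.12), *KRT6C* (0.10), *KRT7* (0.019), *KRT5* minus *KRT14* (-0.00428) and *KRT7* minus *KRT19* (-0.000422). With single arrays left out, ranges spanned 0 for *KRT19* (-0.15 to 0.00108), *KRT31* (-0.33 to 0.00908), *KRT34* (-0.27 to 0.23), *KRT6C* (-0.16 to 0.079), *KRT7* (-0.21 to 0.11), *KRT1* minus *KRT10* (-0.13 to 0.14), *KRT5* minus *KRT14* (-0.043 to 0.12) and *KRT7* minus *KRT19* (-0.068 to 0.11).

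Over 8229 coding genes, deviations from the group means correlated at 0.13, 0.02 and 0.06 between same-numbered pools, and at -0.13 to 0.08 between the others. With 3 arrays per group these values cannot decide whether the numbers pair the pools. With the replicate block the count lower at both thresholds was 1.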
